A study of Mus musculus with 6 samples.

Results

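The miR-26 family was followed in small RNA libraries of whole mouse retina. Its members are the precursors mmu-mir-26a-1, mmu-mir-26a-2 and mmu-mir-26b, taken by name and written without the species prefix below, 3 of the 855 miRNA precursors with deposited values. Retinas came from 4-week-old mice of a mixed C57BL/6J - SJL background. Both groups carried floxed Dicer1 alleles and were littermates. Control mice (Dicerfl/fl, iCre75-) lacked the Cre transgene, and cKO mice (Dicerfl/fl, iCre75+) carried iCre75, in which a rhodopsin promoter drives Cre in rod photoreceptors, so that Dicer1 was deleted in rods and not by design in the other cells of the retina. Each genotype has 3 libraries, given as biological replicates, and each library was made from 6 pooled retinas. Small RNA libraries do not measure Dicer1 mRNA, so the deletion could not be read from the targeted gene.

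Dicer1 encodes the RNase that cuts precursor hairpins to mature miRNAs. The members of the miR-26 family are broadly expressed, become abundant as neurons differentiate, and lie inside genes of the Ctdsp family. These genes encode small phosphatases that act on the C-terminal domain of RNA polymerase II and assist REST, a repressor of neuronal genes. In zebrafish miR-26b represses the transcript of its own host gene during neuronal differentiation. miR-26a is also known to repress Ezh2, the methyltransferase of Polycomb repressive complexes. Retinal rods are known for a high content of the miR-183 cluster (mir-183, mir-96 and mir-182), which is the measure of rod miRNAs used below.

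The mature sequences are shown because they set what these libraries can separate. They are from RefSeq (GRCm38.p6), run 5′ to 3′, and have the seed (bases 2 to 8) in capitals.
miR-26a-5p: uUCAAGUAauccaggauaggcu
miR-26b-5p: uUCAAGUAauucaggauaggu
miR-26a-1-3p: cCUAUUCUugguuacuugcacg
miR-26a-2-3p: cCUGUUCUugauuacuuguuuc
miR-26b-3p: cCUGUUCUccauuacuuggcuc
The loci mir-26a-1 and mir-26a-2 encode the same miR-26a-5p. Counted from the 5′ end, miR-26b-5p differs from it by C11U and C21U over 21 bases and is 1 base shorter, 21 against 22 bases. Both 5p arms share the seed UCAAGUA, which no other mouse mature miRNA name among the 1679 in the RefSeq table carries. The 3p arms differ more. Those of the mir-26a copies differ at 6 of 22 bases, among them A4G inside the seed, so that miR-26a-1-3p has a seed of its own, whereas miR-26a-2-3p and miR-26b-3p share CUGUUCU and differ at 4 bases.

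The hairpins are shown with both mature arms in capitals, because the mir-26a copies differ from each other only outside the 5p arm.
mir-26a-1: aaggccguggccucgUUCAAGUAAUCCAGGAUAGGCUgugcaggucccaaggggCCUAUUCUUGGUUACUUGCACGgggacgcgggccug
mir-26a-2: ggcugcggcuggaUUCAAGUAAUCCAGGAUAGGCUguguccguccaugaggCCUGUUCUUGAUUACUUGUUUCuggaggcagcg
mir-26b: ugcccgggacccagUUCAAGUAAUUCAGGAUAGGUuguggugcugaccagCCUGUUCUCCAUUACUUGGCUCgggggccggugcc
In GRCm38.p6, a later build than the mm9 named for the deposited values, mir-26a-1 lies at chr9:119031796-119031885, mir-26a-2 at chr10:126995530-126995613 and mir-26b at chr1:74394310-74394394, each on the plus strand. In the principal transcripts of GENCODE M21 (also GRCm38) mir-26a-1 lies in intron 5 of Ctdspl, mir-26a-2 in intron 5 of Ctdsp2 and mir-26b in intron 4 of Ctdsp1, each on the strand of its host. In all 3 hosts the exon before this intron has 57 bases and the exon after it 93 bases, while the introns have 3283, 1946 and 564 bases. The host transcripts are not measured by small RNA libraries, and their levels were not analysed here.

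Library totals worked out from the values ranged from 5480940 to 7478237 reads. The deposited unit is RPKM, reads divided by precursor length and by library size. For a 75-base precursor a single read equals between 1.78 and 2.43 RPKM, so miR-26 values rest on large counts. The share of mir-182 was 54.7% ± 2.34 of library reads in control libraries against 30.2% ± 3.22 in cKO libraries (SD, n = 3 and 3). Control 1 stood at 57.4%, above the 53.6% and 53.2% of the other controls, and it was also the lowest library for each miR-26 precursor. Fewer rods and less miRNA per rod cannot be told apart in whole retina.

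The reads at mir-26a-1 and mir-26a-2 were nearly the same number in every library. Control 1, 2 and 3 held 178319, 196788 and 206239 reads at mir-26a-1 and 178246, 196723 and 206180 reads at mir-26a-2. cKO 1, 2 and 3 held 240288, 295658 and 217205 reads at mir-26a-1 and 240236, 295590 and 217174 reads at mir-26a-2. The copies therefore differed by 31 to 73 reads a library, at most 0.0409% of the reads at mir-26a-1. Their RPKM values differ almost wholly because the hairpins have 90 and 84 bases, and neither locus has a level of its own in these data.

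The surplus of mir-26a-1 over mir-26a-2 is the one quantity that depends on sequence which the copies do not share. It was 73, 65 and 59 reads in control 1 to 3 and 52, 68 and 31 reads in cKO 1 to 3. Per 1000000 library reads this was 9.18 ± 0.735 for control against 7.67 ± 2.09 for cKO (SD, n = 3 and 3), with overlapping groups (two-sided exact permutation, p = 0.4). As a share of the reads at mir-26a-1 it was 0.0286% to 0.0409% in control and 0.0143% to 0.0230% in cKO retina, without overlap. Tested as the log2 difference of the copies within a library, p was 0.1 (two-sided exact permutation), the lowest reachable, and 0.19 after adjustment. These shares rest on few reads, and their counting error was not estimated. The surplus is a net number, and how many reads fit each copy alone is not known.

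The precursor mir-26b held 155786, 176230 and 184639 reads in control 1 to 3 and 215546, 261149 and 191206 reads in cKO 1 to 3. This was 0.888 ± 0.0126 times the reads at mir-26a-1 for control against 0.887 ± 0.00892 times for cKO (SD, n = 3 and 3; two-sided exact permutation, p = 1). Over single libraries the ratio ran from 0.874 in control 1 to 0.897 in cKO 1, and mir-26b was the lower in 6 of 6 libraries.

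Whether mir-26b was measured separately from mir-26a is limited by how reads were assigned. Summed over the 833 precursors with a known length, reads came to 1.55 to 1.86 times the library total. When precursors that share an identical 20-base window were grouped and only the highest of each group was counted, the sum was still 1.18 to 1.29 times the total. With 1 mismatch allowed in the window it was 1.03 to 1.04 times, and with 2 mismatches 0.986 to 0.999 times. The miR-26 precursors enter a common group once 1 mismatch is allowed, and at 2 mismatches that group still holds no other precursor. If each read enters the total once, reads were thus also counted at precursors that differ from each other by a base or more, and the overlap between mir-26a and mir-26b reads is not known. The family held at least the share of mir-26a-1, and at most that of mir-26a-1 and mir-26b added, if both copies of mir-26a are taken as 1.

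**Figure D1:**
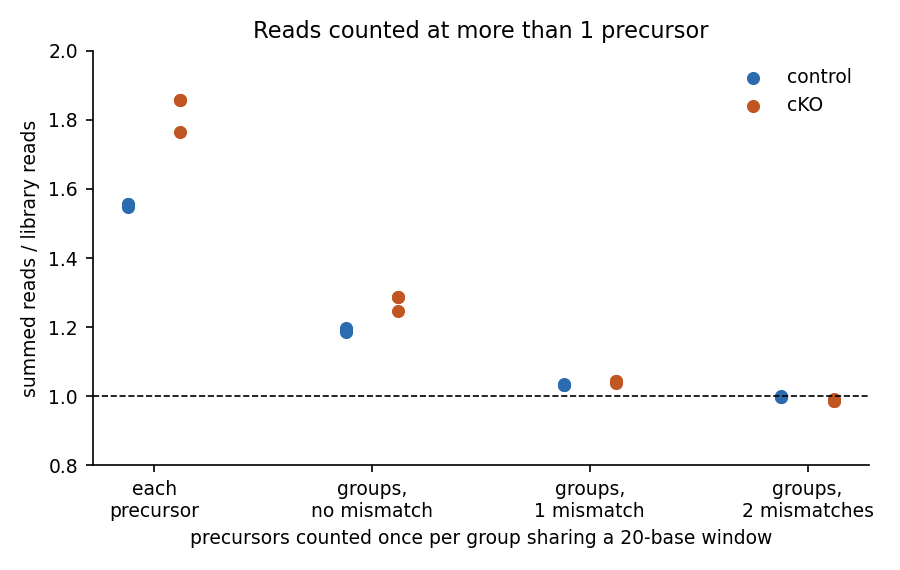
Summed reads of 833 precursors divided by library reads (vertical axis) for 3 control and 3 cKO libraries (points), counting each precursor, or only the highest precursor of each group that shares a 20-base window with 0, 1 or 2 mismatches. The sums fall from 1.55 to 1.86 to between 0.986 and 0.999, close to the dashed line at 1.

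The miR-26 family took a larger share of library reads in cKO than in control retina. With groups at 2 mismatches counted once, precursor reads came to 0.986 to 0.999 times the library total. Allowing more mismatches can only lower this sum, and counting only the highest of a group drops reads of its other members. A sum near 1 thus does not show that the total is made of miRNA reads. Whether the shares are of miRNA reads or of all small RNA is not known. At mir-26a-1 control 1, 2 and 3 had 2.38%, 2.85% and 2.92% of library reads, and cKO 1, 2 and 3 had 3.47%, 4.28% and 3.96%. At mir-26b the shares were 2.08%, 2.56% and 2.61% in control and 3.11%, 3.78% and 3.49% in cKO retina, in the same order of libraries. Every cKO library lay above every control library, and within each genotype replicate 1 was the lowest for both precursors. The mean share of mir-26a-1 was 2.72% ± 0.292 for control against 3.90% ± 0.407 for cKO (SD, n = 3 and 3), a difference of 1.18 percentage points. By exact two-sided permutation p was 0.1, the lowest that groups of 3 can reach. For mir-26a-1 and mir-26b added, the upper limit for the family, the shares were 5.14% ± 0.584 for control against 7.36% ± 0.740 for cKO (SD, n = 3 and 3). Counting error was small beside this spread: the Wilson 95% interval of mir-26a-1 in control 1 ran from 2.37% to 2.40%. The interval describes counting alone, because amplified reads that carry no molecular identifier need not be separate molecules.

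**Figure D2:**
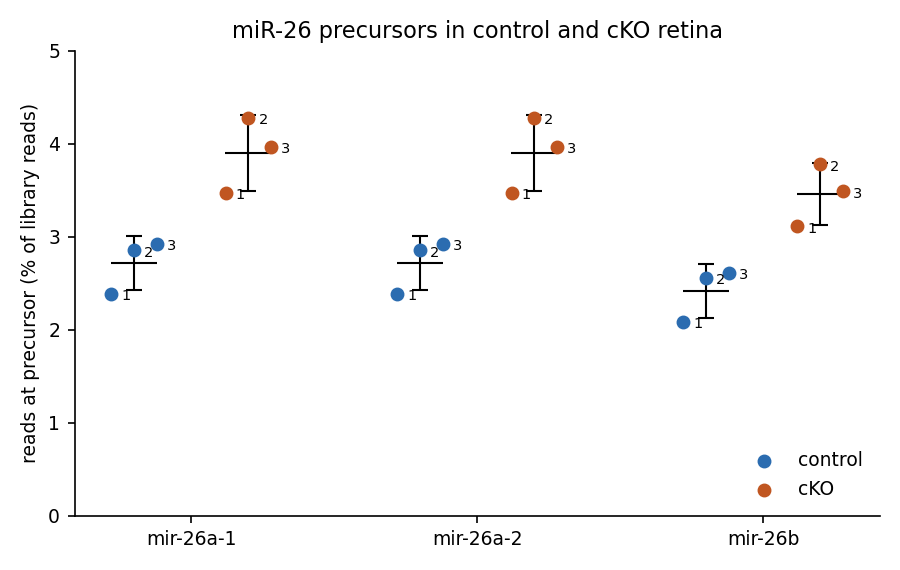
Share of library reads at each miR-26 precursor (vertical axis, percent) in 3 control and 3 cKO libraries (points, numbered by replicate), with mean and SD (bars). The cKO libraries lie between 3.11% and 4.28% and the control libraries between 2.08% and 2.92%; mir-26a-1 and mir-26a-2 show the same reads.

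On the deposited scale mir-26a-2 measured 283754, 339701 and 347602 RPKM in control 1 to 3 and 412947, 508934 and 471708 RPKM in cKO 1 to 3. The groups did not overlap. The log2 fold change on the log2(RPKM + 1) scale was 0.52 (SE 0.12, 95% interval 0.25 to 0.79), a 1.44-fold rise (limma, Benjamini-Hochberg adjusted p = 0.0036 over 461 precursors). The near-duplicate mir-26a-1 averaged 302209 ± 32481 RPKM for control against 433646 ± 45179 RPKM for cKO (SD, n = 3 and 3), with the same log2 fold change of 0.52. The precursor mir-26b gave 284480 ± 34293 RPKM for control against 406971 ± 39213 RPKM for cKO (SD, n = 3 and 3) and also stood at 0.52 (SE 0.12; limma adjusted p = 0.0041). As deposited all 3 members rose and none fell, where 69.4% of the 461 tested precursors rose, 1.74% fell and 71.1% changed in either direction. For all 3 every cKO library lay above every control library, as for 71.6% of tested precursors, while 1.95% had every cKO library below. The share of members is what the background gives, and the 3 are not separate measurements.

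The rise of miR-26 as deposited was below the difference of the typical precursor, and this shortfall nearly vanished with quantile normalization. The median log2 fold change of all tested precursors was 0.74, and 29.3% of them had a lower log2 fold change than mir-26a-2. For mir-26a-2 minus that median the value was -0.22 as deposited and between -0.23 and -0.22 under the 4 alternatives that multiply each library by 1 factor, but -0.0054 with quantile normalization, which reshapes the distribution of each library. Within libraries, where a factor per library cancels, the mean log2 level of the family stood above the median of tested precursors by 10.06 ± 0.072 for control against 9.82 ± 0.070 for cKO (SD, n = 3 and 3). This is a difference of -0.24, with every cKO library below every control library (two-sided exact permutation, p = 0.1, the lowest reachable; Benjamini-Hochberg adjusted p = 0.19 over the 15 within-library comparisons made).

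**Figure D3:**
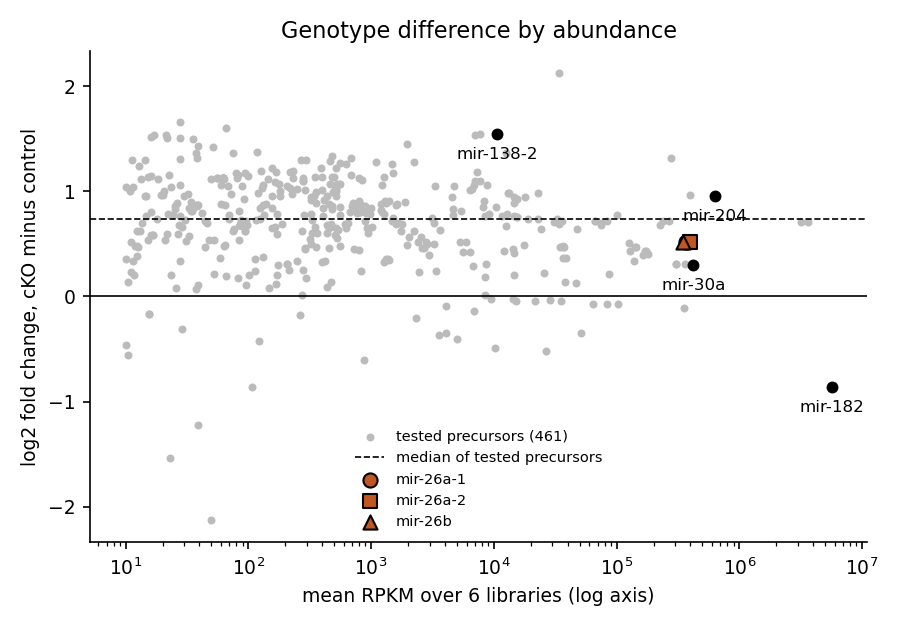
Log2 fold change of cKO minus control (vertical axis) against the mean RPKM of the 6 libraries (horizontal log axis) for 461 tested precursors (grey). The miR-26 precursors (coloured) lie at 0.52, above the line at 0 and below the dashed median of 0.74; as deposited mir-182 fell and mir-138-2, mir-204 and mir-30a rose, whereas mir-182 and mir-204 did not pass with quantile normalization, mir-204 did not pass with median-of-ratios scaling, and mir-30a rose under no other scaling and fell with median-of-ratios and with totals without mir-182.

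The direction of the miR-26 difference depended on the total to which libraries were scaled. Divided by the library sums of RPKM, mir-26a-2 still rose, by 0.31 (SE 0.11; limma adjusted p = 0.031). Totals that leave out the 10 most abundant precursors were sums of RPKM over the rest, not of reads. The 10 left out hold the members mir-26a-1 and mir-26a-2 themselves. With these totals mir-26a-2 stood at 0.010 (adjusted p = 0.94), and with quantile normalization at 0.037 (adjusted p = 0.80). With totals that leave out mir-182 reads it stood at -0.10 (SE 0.085; adjusted p = 0.47). Scaled by the median of ratios to the typical precursor, it was -0.21 (SE 0.10; adjusted p = 0.20). RPKM is relative to the library's own total, of which mir-182 alone held 54.7% in control, and no value here shows whether miR-26 was higher or lower per retina or per cell.

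**Figure D4:**
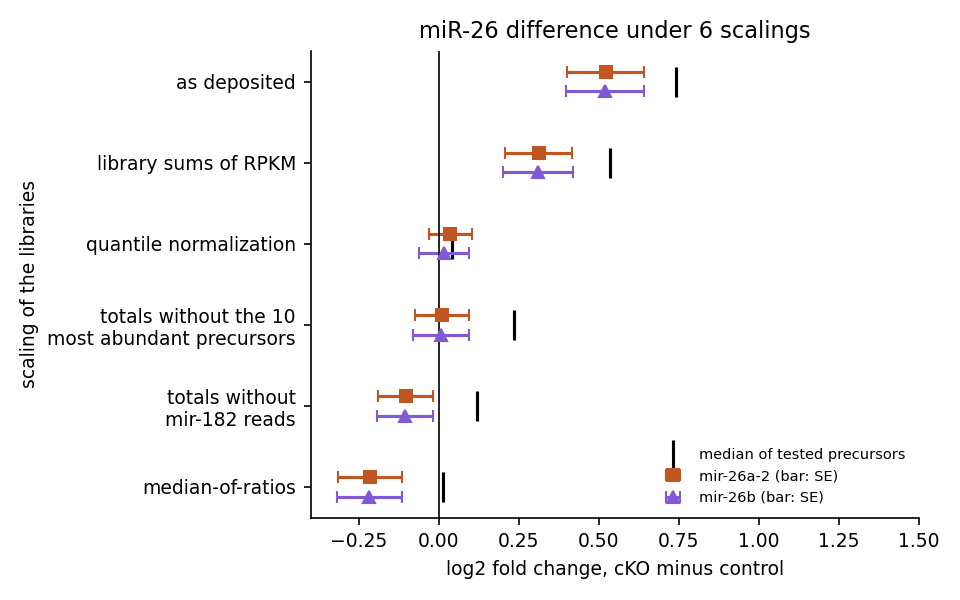
Log2 fold change of cKO minus control (horizontal axis) of mir-26a-2 and mir-26b under 6 scalings of the libraries (rows), with SE bars, and the median of tested precursors (black ticks). Both precursors rise as deposited and with library sums of RPKM, lie near 0 without passing under quantile normalization and totals without the 10 most abundant, and lie below 0 without passing when mir-182 reads are left out or with median-of-ratios scaling.

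Set against named miRNAs of the same library, where a factor per library cancels, the miR-26 difference was widest against mir-182 among the 15 comparisons. The family's mean log2 level minus that of mir-182 was -4.86, -4.49 and -4.44 in control 1 to 3 and stood at -3.54, -3.02 and -3.07 in cKO 1 to 3. The gap was therefore smaller in every cKO library, and the ratio of miR-26 to mir-182 was 2.61-fold higher in cKO retina (log2 1.38; two-sided exact permutation, p = 0.1; adjusted p = 0.19). This gain is not particular to miR-26. As deposited mir-182 stood at -0.86, and only 0.65% of the 461 tested precursors had a lower log2 fold change. The median over all tested precursors was 0.74, above the 0.52 of mir-26a-2, so the typical precursor gained more on mir-182. Of the photoreceptor list 2 of 3 precursors fell as deposited, mir-182 and mir-96, and the other, mir-183, stood at -0.11 (limma adjusted p = 0.68). All 3 fell after median-of-ratios scaling, and with quantile normalization 1 did, mir-96. Their summed level was 7568210 to 7894240 RPKM in control and 4037710 to 4911540 RPKM in cKO libraries. Against the copies of the neuronal mir-124 the family stood at 1.85 ± 0.125 for control against 2.44 ± 0.248 for cKO (log2, SD, n = 3 and 3), also without overlap. Most precursors gained on mir-124 too: as deposited 5.4% had a lower log2 fold change than mir-124-2, at -0.070.

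Against mir-126, mir-204 with mir-211, mir-181a with mir-181b, and mir-9, the family was lower in every cKO library or the groups overlapped. Relative to mir-126 of endothelial cells it stood at 5.44 ± 0.217 for control against 4.59 ± 0.213 for cKO (log2, SD, n = 3 and 3), with every cKO library lower. Relative to mir-204 and mir-211, listed here as pigment epithelial, it stood at -0.17 ± 0.096 for control against -0.61 ± 0.084 for cKO (log2, SD, n = 3 and 3). Every cKO library was again lower. By mean level mir-204 ranked 4 in control, and which retinal cells held mir-204 and mir-211 was not tested. Relative to mir-181a and mir-181b of the inner retina the groups overlapped, at -1.21 ± 0.127 for control against -1.40 ± 0.083 for cKO (two-sided exact permutation, p = 0.2). Relative to mir-9 of progenitors and Müller glia they overlapped as well, at 2.48 ± 0.383 for control against 2.28 ± 0.198 for cKO (two-sided exact permutation, p = 0.6). Of the 15 within-library comparisons none passed after adjustment, since 3 libraries against 3 cannot give p below 0.1.

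Most listed markers of other cell types rose as deposited, where 69.4% of all 461 tested precursors rose. The median log2 fold change was 0.96 for mir-204 with mir-211, 0.73 for red cell and 0.97 for leukocyte miRNAs. Over all tested precursors it was 0.74, so these rises are not particular to the markers. As deposited, summed RPKM ranged from 655315 to 758334 in control and from 1197360 to 1475670 in cKO retina for mir-204 and mir-211, where 2 of 2 rose. The red cell miRNAs mir-451a, mir-144 and mir-486 summed to 16553 to 19359 RPKM in control and 26668 to 31080 RPKM in cKO, and 2 of 3 rose. The leukocyte miRNAs mir-142, mir-223 and mir-150 summed to 2076 to 2558 RPKM in control and 3712 to 5613 RPKM in cKO, and 2 of the 2 tested rose, mir-223 being under the minimum for testing. Both mir-204 and mir-211 also rose with library sums of RPKM, with totals without mir-182 and with totals without the 10 most abundant, and with quantile normalization mir-211 did. Of the red cell miRNAs 2 rose with library sums, 1 without the 10 most abundant and none under the other 3 scalings. Of the leukocyte miRNAs 2 rose with library sums, 1 without the 10 most abundant, 1 with quantile normalization and none without mir-182. With median-of-ratios scaling none of the 3 lists had a call, with medians of 0.22, -0.0039 and 0.24 on the log2 scale. As deposited the 3 mir-9 precursors, the 4 of mir-181a and mir-181b, and mir-126 also rose, and of these only mir-126 passed with median-of-ratios scaling. The 3 mir-124 precursors did not pass as deposited, at a median of -0.07, and 3 of 3 fell with that scaling. No listed marker was at 0 in all libraries. Their part in the miR-26 difference was not tested.

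**Figure D5:**
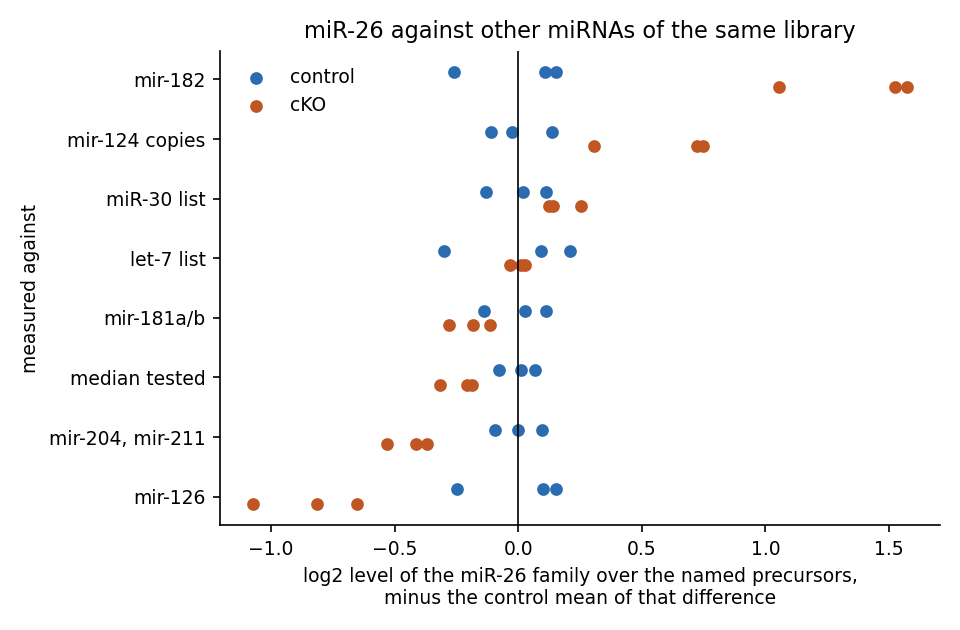
Mean log2 level of the miR-26 family over the named precursors of the same library, minus the control mean of that difference (horizontal axis), for 3 control and 3 cKO libraries (points). The cKO points lie above control for mir-182, mir-124 and miR-30, below control for the median precursor, mir-204 with mir-211, and mir-126, and overlap for let-7 and mir-181a/b.

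The other broadly expressed families also depended on the scaling. Of all 461 precursors 320 (69.4%) rose as deposited, 213 rose with library sums of RPKM, and median-of-ratios scaling left 10 that rose and 46 that fell. The let-7 miRNAs, known to hold back Lin28 and progenitor genes, rose in 14 of 14 precursors as deposited, in 4 with library sums of RPKM and in none under the other 4 scalings, with a median of -0.27 under median-of-ratios. Relative to their mean miR-26 stood at 2.65 ± 0.267 for control against 2.66 ± 0.031 for cKO (log2, SD, n = 3 and 3), a difference of 0.0010 with overlapping groups (two-sided exact permutation, p = 1). The controls spread from 2.35 in control 1 to 2.86 in control 2, which limits the size of difference that could be seen. The miR-30 precursors rose in 7 of 7 as deposited, with a median of 0.31, whereas 6 of 7 fell with median-of-ratios scaling, with a median of -0.43, and 4 fell with totals without mir-182. None rose or fell with library sums of RPKM, totals without the 10 most abundant or quantile normalization. Relative to them miR-26 stood at 1.39, 1.63 and 1.54 in control 1 to 3 and at 1.64, 1.78 and 1.66 in cKO 1 to 3. The cKO libraries were higher by 0.17 on average, with cKO 1 just above control 2 (two-sided exact permutation, p = 0.1). Precursors of miR-29, which are known to restrain collagen genes, did not pass in 4 of 4, with a median of 0.47 as deposited. The 3 precursors of mir-103 and mir-107, which are known to target Dicer1, rose as deposited with a median of 0.76 and none passed with median-of-ratios scaling, at 0.024. Many precursors of these families are near-identical copies whose counts are not of separate measurements.

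By level miR-26 stood among miR-30, mir-204 and mir-211. In control retina the order of mean RPKM ran mir-204, mir-30a, mir-183, mir-26a-2, mir-30d, mir-26a-1, mir-26b and mir-30e. From mir-26a-2 at 323686 ± 34807 RPKM to mir-30e at 274673 ± 9132 RPKM (SD, n = 3 and 3), each neighbour in this order differed from the next by less than the larger of their SDs. In cKO retina mir-30a at 465898 ± 25000 RPKM and mir-26a-2 at 464530 ± 48395 RPKM (SD, n = 3 and 3) were not separable. The members ranked between 6 and 12 of 855 precursors in every library.

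The other miRNAs known to repress Ezh2 differed among themselves. Of mir-101a, mir-101b, mir-138-1 and mir-138-2, 3 rose as deposited, where 69.4% of all 461 tested precursors rose. The median log2 fold change over the 4 was 0.99, beside 0.74 over all tested precursors. It lies between mir-101b and the copies mir-138-1 and mir-138-2, both at 1.54, and describes no single member. The neuronal mir-138-2 rose 2.92-fold (limma adjusted p = 1.7e-04) and rose under each of the 5 other scalings, by 0.81 with median-of-ratios. The precursor mir-101b stood at 0.44 as deposited, a rise (limma adjusted p = 0.019), and at -0.30 under median-of-ratios scaling, without passing. The precursor mir-101a stood at 0.22 as deposited (limma adjusted p = 0.19), and its value of -0.51 after median-of-ratios scaling was a fall (limma adjusted p = 0.032).

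Among 36 other precursors that lie in introns of protein-coding genes, 29 rose and 2 fell as deposited, where 69.4% of all 461 rose and 1.74% fell. Their median log2 fold change was 0.68, beside 0.74 over all tested precursors. The log2 fold change was higher than that of mir-26a-2 for 21 of the 36 as deposited, but for 15 with quantile normalization. Of all 461 precursors 29.3% had a lower log2 fold change than mir-26a-2 as deposited. With quantile normalization mir-26a-2 minus the median of all was -0.0054. Some of the 36, such as mir-103-1 and mir-103-2, are near-identical copies and not separate measurements. With median-of-ratios scaling 2 of the 36 rose and 7 fell, beside 10 and 46 of all 461. The most abundant were mir-204 of Trpm3 and mir-211 of Trpm1, at 0.96 each, followed by mir-30e of Nfyc at 0.31 and mir-16-2 of Smc4 at 0.47, all 4 passing as deposited; with median-of-ratios scaling mir-30e fell and the other 3 did not pass. The 2 that fell were mir-335 of the imprinted Mest gene, at -0.35 (SE 0.14; limma adjusted p = 0.047), and mir-483 of the imprinted Igf2 gene, at -0.86 (SE 0.19; adjusted p = 0.0027). Both fell under each of the 5 other scalings too.

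The precursors whose pattern over the 6 libraries was most like that of miR-26 were sought among 159 others with a mean of at least 1000 RPKM. Likeness was the root mean square difference of log2(RPKM + 1) after each precursor was centred on its own mean. The nearest to mir-26a-2 were mir-101b at 0.065, mir-361 at 0.072, mir-532 at 0.073, mir-24-1 at 0.086 and mir-3074-1 at 0.086, while the median over the 159 was 0.22. The same 5 were nearest to mir-26b, with mir-532 first at 0.066. Of these, mir-24-1 and mir-3074-1 had nearly the same log2 fold change as deposited, 0.566 and 0.567, and may not be separate measurements. Between mir-26b and mir-26a-2 the difference was 0.015. As deposited mir-361 rose 1.43-fold, mir-532 1.40-fold and mir-24-1 1.48-fold, but after median-of-ratios scaling their log2 fold changes were -0.22, -0.25 and -0.17 and none passed. Likeness was taken over the same libraries, genotype difference included, so fold changes near those of miR-26 follow from the choice.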

How the data were processed

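The authors deposited RPKM values (reads scaled by precursor length and library size) for 855 miRNA precursors, 203 of them at 0 in every library. The submitters' processing notes name Bowtie and mm9. Versions, annotation, filters and how multiply matching reads were handled: not given in the sources used here. Per the labels' protocols, adapter-ligated libraries were amplified by 11 rounds of PCR, gel-selected and sequenced in a shared 50-base run, so run and genotype are not confounded.

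Each RPKM value times hairpin length (833 precursors matched by name to RefSeq or GENCODE) was a whole multiple of a step fixed per library, which gave whole reads for 100.0% of 4998 values, zeros included (tolerance 0.01 reads), and library totals.

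Log2(RPKM + 1) was tested with limma 3.58.1 in R 4.3.3 (eBayes with trend, two-sided) over the 461 precursors averaging 10 RPKM or more, without further scaling, adjusted p after Benjamini and Hochberg below 0.05. The fit was checked on simulated data with a common SD and as many rises as falls. In the deposited values 93.1% of tested precursors had a log2 fold change above 0, and the check does not cover such an imbalance. Single values were tested by exact permutation of libraries (scipy 1.17.1). Named were the members, the miR-183 cluster, the 5 precursors nearest in pattern, and of each list those that fell and up to 4 of highest mean. Members, lists and tests were chosen with earlier results of these data known. Figures were drawn with matplotlib 3.10.9.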

Additional observations from a re-analysis of the deposited data

How the results depend on the processing

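As deposited, the rise of mir-26a-1, mir-26a-2 and mir-26b kept its call under 15 of 19 alternatives each: other pseudocounts and filters, library sums of RPKM, no variance trend, limma voom on recovered reads, near-identical precursors summed (0.52), the replicate block and leaving out each library. Among these only the library sums change how libraries are scaled, so the tally does not speak to the scaling. Leaving out a library gave log2 fold changes from 0.43 to 0.60 for mir-26a-1 and mir-26a-2 and from 0.42 to 0.59 for mir-26b (limma adjusted p 0.0014 to 0.022), lowest without control 1. The call was lost, for mir-26a-1, mir-26a-2 and mir-26b in that order, with totals without the 10 most abundant precursors (0.010, 0.010 and 0.0080) and quantile normalization (0.034, 0.037 and 0.017). The sign turned with totals without mir-182 reads (-0.10, -0.10 and -0.11) and median-of-ratios scaling (-0.21, -0.21 and -0.22). Quantile normalization also brought the members close to the median of tested precursors (differences of -0.0080, -0.0054 and -0.025); the cause was not tested. The difference of mir-26b minus mir-26a-2 between genotypes, -0.0022 on the log2 scale, ran from -0.014 to 0.0038 when a library was left out. The family minus the median precursor ran from -0.28 to -0.20, and minus mir-182 from 1.25 to 1.55, in the same direction without each library.

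Over all tested precursors 320 rose and 8 fell as deposited. The counts were 10 and 46 with median-of-ratios scaling, 20 and 36 without mir-182 reads, 57 and 29 without the 10 most abundant, 213 and 13 with library sums of RPKM and 12 and 29 with quantile normalization. With near-identical precursors summed 198 rose among fewer features, and with a minimum of 100 RPKM 4 fell. Leaving out a library gave 252 to 322 that rose and 4 to 12 that fell.

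Replicate numbers are shared between genotypes without a stated pairing. Deviations of same-numbered libraries correlated at 0.19, 0.26 and 0.0093. Control 2 with cKO 1 and control 1 with cKO 2 correlated at -0.22 and -0.21, while cKO 3 correlated best with control 2 (0.048). Pairing is thus not settled by these values, and the numbers were not taken as pairs. With the replicate block mir-26a-2 stood at 0.52 (adjusted p = 9.7e-04), and 338 precursors rose and 10 fell.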
